A study of Mus musculus with 10 samples.

Results

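9 genes of the insulin signalling route through phosphoinositide 3-kinase (PI3K), AKT, FOXO and mTOR were followed in RNA sequencing of mouse pancreas. They were Pik3ca, Pik3r1, Akt1, Akt2, Foxo1, Foxo3, Tsc2, Mtor and Rptor, taken by symbol from a table of raw counts, and they make up 9 of its 24421 genes. Each library came from a piece of pancreas tail of 1 female mouse aged 12 weeks. The mice carried Ptf1aCreER, a Cre recombinase that is active after tamoxifen in cells that express Ptf1a (in the adult pancreas, the acinar cells that make digestive enzymes), and the nuclear fluorescent reporter nTnG. What set the groups apart was the gene of the insulin receptor, Insr. There were 3 libraries labelled WT (Insr w/w, 0 floxed alleles), 3 labelled Het (Insr w/f, 1 floxed allele) and 4 labelled KO (Insr f/f, 2 floxed alleles). A floxed allele is one that Cre can remove. Cells of the tail piece other than acinar cells keep Insr and were sequenced together with them. Libraries are named by group and mouse number, as in WT-2404. The question the groups address here is whether transcripts of the signalling route below the receptor differ in amount with the number of floxed Insr alleles.

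As background, the insulin receptor acts through adaptor proteins on PI3K, which makes a membrane lipid that recruits the kinase AKT. AKT phosphorylates FOXO transcription factors, which then leave the nucleus, and it inhibits the TSC complex, which releases the kinase mTOR in the complex mTORC1 to drive protein synthesis. These steps work through phosphorylation and location of proteins, so transcript counts measure the amount of the components and not the activity of the route. Acinar cells make large amounts of secreted protein, and mTORC1 is known for its part in that synthesis.

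To show the sequences in front of these genes, the 250 bases before the RefSeq start were searched in all 32851 mouse windows of that length (GRCm38.p6), on both strands. All 9 genes matched, with 14 windows among them. The letters searched were GTAAACA (a form of the FOXO site), CCGGAAGT (a form of the ETS site), CACGTG (an E box) and GGGCGG (a GC box). No searched motif contains another. The FOXO letters were found in 1 of 14 windows, that of Akt1, against 3.17% of all windows. The ETS letters stood in front of Pik3ca, Mtor and Tsc2, in 3 of 14 windows against 2.88% of all windows. The GC box stood in 7 of 14 windows, in front of 7 genes (32.7% of all windows), and the E box in 0 of 14 (6.02%). A match is a description of letters, not of a bound site. The 4 windows that hold the FOXO or ETS letters are shown 5′ to 3′ on the strand of the gene, with the matched letters or their reverse complement in capitals. They are chr12:112674885-112675134 on the minus strand (Akt1), chr3:32396815-32397064 on the plus strand (Pik3ca), chr4:148448332-148448581 on the plus strand (Mtor) and chr17:24632628-24632877 on the minus strand (Tsc2).
Akt1: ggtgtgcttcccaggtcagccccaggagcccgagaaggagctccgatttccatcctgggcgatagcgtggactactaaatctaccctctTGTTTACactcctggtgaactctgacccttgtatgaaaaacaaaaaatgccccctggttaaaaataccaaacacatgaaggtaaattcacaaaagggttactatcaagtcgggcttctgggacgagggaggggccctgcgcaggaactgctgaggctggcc
Pik3ca: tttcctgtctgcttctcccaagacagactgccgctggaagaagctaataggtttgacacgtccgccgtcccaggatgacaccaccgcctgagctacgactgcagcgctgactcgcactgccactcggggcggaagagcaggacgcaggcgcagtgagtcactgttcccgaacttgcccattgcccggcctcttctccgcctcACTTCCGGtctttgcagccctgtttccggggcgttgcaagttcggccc
Mtor: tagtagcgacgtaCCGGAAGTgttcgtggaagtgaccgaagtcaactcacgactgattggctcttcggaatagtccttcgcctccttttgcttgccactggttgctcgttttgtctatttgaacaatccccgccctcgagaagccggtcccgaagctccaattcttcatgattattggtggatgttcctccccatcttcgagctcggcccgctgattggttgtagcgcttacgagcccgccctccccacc
Tsc2: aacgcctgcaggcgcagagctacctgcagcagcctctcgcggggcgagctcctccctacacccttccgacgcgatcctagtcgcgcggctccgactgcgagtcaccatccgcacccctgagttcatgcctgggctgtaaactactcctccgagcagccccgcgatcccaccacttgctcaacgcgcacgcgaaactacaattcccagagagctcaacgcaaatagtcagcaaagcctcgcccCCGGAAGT
The FOXO letters of Akt1 begin 161 bases before its start. The ETS letters begin 48 bases before the start of Pik3ca, 237 before that of Mtor and 8 before that of Tsc2, where they close the window.

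Gene counts ranged from 11718559 to 19024351 per library, and all 9 genes were among the 13688 genes that passed the filter on low counts. WT-2404 stood apart. Its 10 acinar marker genes (digestive enzymes such as Cpa1 and Cela1) took 12.1% of counts, against 44.7% to 60.6% in the other 9 libraries, and its TMM scaling factor was 3.54, against 0.596 to 1.56. Levels below are counts-per-million values (CPM) of the TMM-scaled library size, so the choice of scaling weighs on every comparison with WT. Summed leukocyte markers such as Ptprc and Cd68 stood at 294 to 1031 CPM in WT, 155 to 227 in Het and 90.4 to 329 in KO. Fibroblast markers such as Col1a1 stood at 1221 to 4327 CPM in WT, 494 to 954 in Het and 438 to 1098 in KO. Ductal markers such as Krt19 stood at 472 to 528 CPM in WT, 226 to 435 in Het and 234 to 363 in KO. Both were higher in every WT library than in any other, and their part in the comparisons with WT was not tested. In bulk tissue, fewer cells of a type and less RNA per cell cannot be told apart. Insr itself stood at 21.0, 27.8 and 40.5 CPM in the WT libraries, at 43.2, 44.2 and 28.2 in the Het libraries and at 22.7, 33.3, 35.5 and 34.7 in the KO libraries. Its log2 fold change was 0.09 ± 0.26 (SE, adjusted p = 0.864) in KO against WT. A count per gene also takes in reads from exons that Cre leaves in place, so this level does not check the labels.

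Across the 10 libraries Akt1 stood highest of the 9 genes and Rptor lowest when levels were divided by exon length (CPM per kilobase of merged exons). Akt1 reached a mean of 23.1 ± 3.96 CPM per kb (SD, n = 10). Akt2 followed at 5.77 ± 1.06 and Pik3r1 at 3.71 ± 0.956 CPM per kb. Each of these 3 stood above the next gene in 10 of 10 libraries. Tsc2 at 2.53 ± 0.239 and Pik3ca at 2.39 ± 0.299 CPM per kb differed by less than their spread, and Tsc2 was the higher in 6 of 10 libraries. Foxo1 stood at 2.14 ± 0.428 CPM per kb, below Pik3ca in 8 of 10 libraries. Mtor (1.39 ± 0.248), Foxo3 (1.34 ± 0.578) and Rptor (1.05 ± 0.190 CPM per kb) closed the order, with neighbours overlapping. The order was the same in the WT and Het means. In the KO means Foxo3 stood above Mtor, which came from KO-2126 alone (2.87 against 1.96 CPM per kb). In KO-2079, KO-2070 and KO-2124 Mtor was the higher of these genes.

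**Figure D1:**
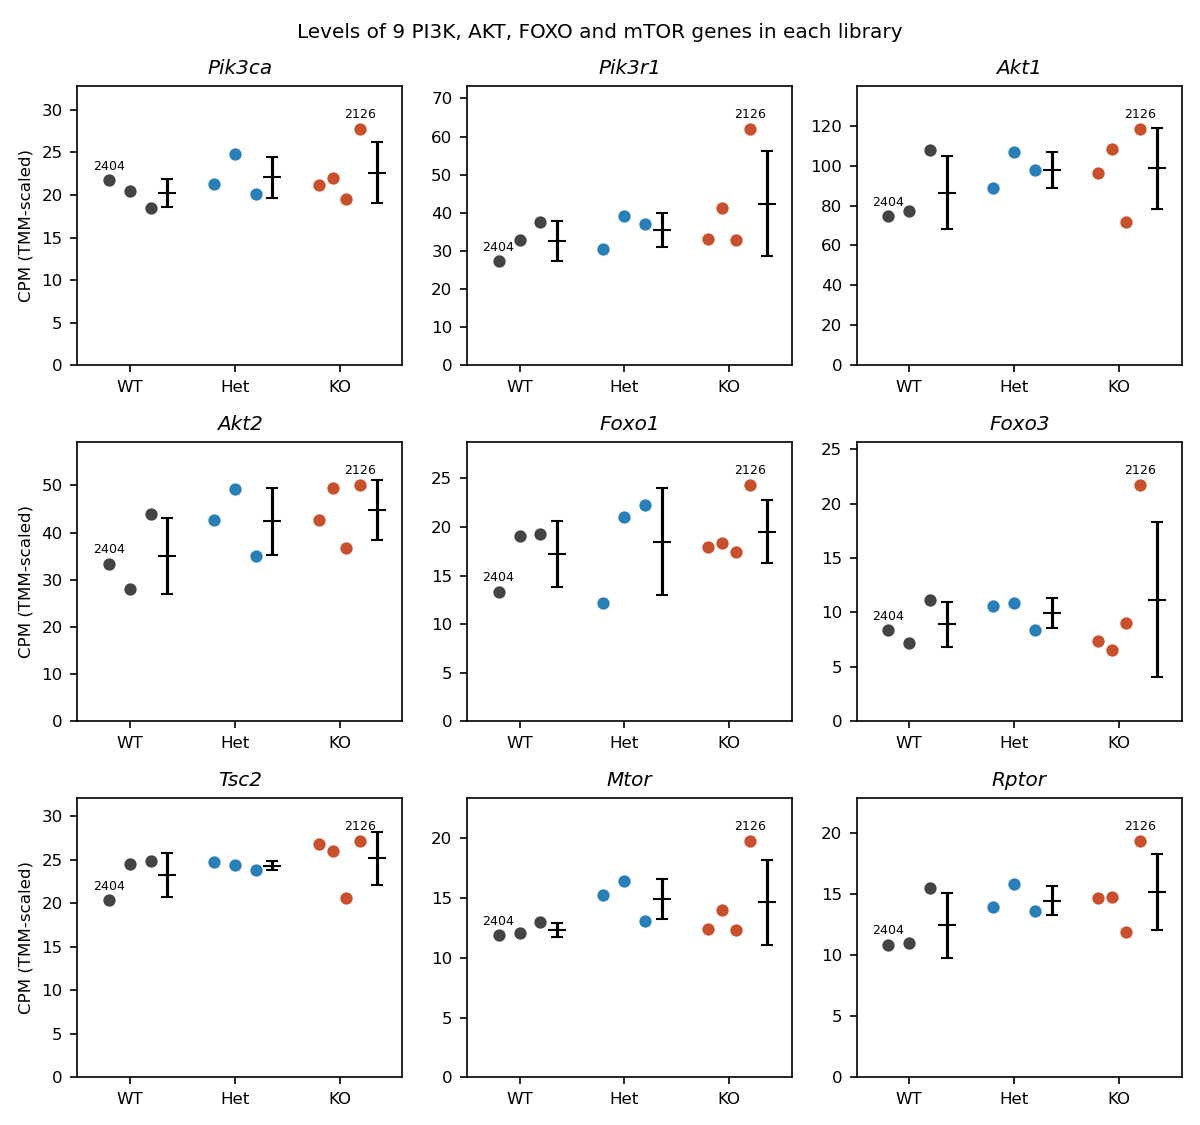
Level of each of the 9 genes in every library, in CPM of the TMM-scaled library size, by group (WT n = 3, Het n = 3, KO n = 4). Points are libraries, in the order of the text, and the black marks give the mean and SD of each group. The groups overlap for every gene except Mtor in Het against WT, where Het covers 13.1 to 16.4 CPM and WT 11.9 to 13.0 CPM.

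None of the 9 genes passed the test in any comparison. The test was edgeR's quasi-likelihood test in 1 fit over all genes and libraries, with Benjamini-Hochberg adjustment and a threshold of 0.05, and 0% of 13688 tested genes passed it in each of the 3 comparisons. At an unadjusted p under 0.05 stood 0 of the 9 genes in each comparison, against 23.5% of all tested genes in KO against WT, 19.8% in Het against WT and 0.752% in KO against Het. DESeq2 called 984, 318 and 0 of all genes in these comparisons and limma-voom 0 in each, and neither called any of the 9. Levels of each gene follow by its role, as CPM in the order WT-2404, WT-1860 and WT-2067, then Het-2066, Het-1770 and Het-2042, then KO-2079, KO-2070, KO-2124 and KO-2126. Gene coordinates are those of GENCODE M21 (GRCm38). Intervals are 95% intervals of the log2 fold change.

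Of the 2 PI3K subunits, Pik3r1 had the larger fitted difference from WT, and the wider spread in KO. Pik3ca (chr3:32397671-32468486, plus strand) encodes the alpha catalytic subunit, which makes the lipid signal. It stood at 21.8, 20.5 and 18.4 CPM in WT, at 21.3, 24.8 and 20.1 in Het and at 21.2, 22.0, 19.5 and 27.8 in KO. The groups overlapped, and KO-2126 was the highest library. The log2 fold change was 0.16 ± 0.17 (SE, adjusted p = 0.594, interval -0.22 to 0.53) in KO against WT and 0.12 ± 0.18 (adjusted p = 0.722) in Het against WT. Pik3r1 (chr13:101680563-101768217, minus strand) encodes the main regulatory subunit, which holds the catalytic subunit and binds the adaptors. It stood at 27.3, 32.8 and 37.6 CPM in WT, at 30.6, 39.1 and 37.0 in Het and at 33.2, 41.4, 32.8 and 62.1 in KO. KO-2126 lay well above the other KO libraries, which sat within 32.8 to 41.4 CPM. The log2 fold change was 0.38 ± 0.24 (SE, adjusted p = 0.345, interval -0.14 to 0.90) in KO against WT, 0.14 without KO-2126, and 0.13 ± 0.26 (adjusted p = 0.792) in Het against WT.

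Both AKT genes overlapped between the groups, with WT-2067 at the level of the KO libraries and KO-2124 at the level of WT. Akt1 (chr12:112653821-112674884, minus strand) encodes the broadly expressed AKT kinase. It stood at 74.6, 77.2 and 108 CPM in WT, at 88.8, 107 and 97.6 in Het and at 96.2, 108, 71.6 and 118 in KO. Its lowest library was KO-2124 and its highest KO-2126, so the KO group alone covered the whole range. The log2 fold change was 0.19 ± 0.24 (SE, adjusted p = 0.649, interval -0.33 to 0.71) in KO against WT and 0.18 ± 0.25 (adjusted p = 0.710) in Het against WT. Akt2 (chr7:27591552-27640826, plus strand) encodes the form best known for insulin-driven glucose handling. It stood at 33.4, 28.1 and 43.9 CPM in WT, at 42.6, 49.3 and 35.1 in Het and at 42.5, 49.4, 36.7 and 50.1 in KO. Both lower WT libraries lay below all Het and KO libraries, and WT-2067 lay among them. The fitted log2 fold change was 0.35 ± 0.21 (SE, adjusted p = 0.326, interval -0.11 to 0.81) in KO against WT and 0.27 ± 0.23 (adjusted p = 0.495) in Het against WT.

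Both FOXO genes had 1 KO library, KO-2126, apart from the other 3. Foxo1 (chr3:52268336-52353221, plus strand) encodes the FOXO factor known for gluconeogenic and stress genes under low insulin. It stood at 13.4, 19.0 and 19.3 CPM in WT, at 12.2, 21.1 and 22.2 in Het and at 17.9, 18.3, 17.4 and 24.4 in KO. WT-2404 and Het-2066 were low, KO-2126 was high, and the other 7 libraries sat within 17.4 to 22.2 CPM. The fold change on the log2 scale was 0.18 ± 0.23 (SE, adjusted p = 0.657, interval -0.32 to 0.69) in KO against WT and 0.11 ± 0.25 (adjusted p = 0.823) in Het against WT. Foxo3 (chr10:42181841-42276755, minus strand) encodes a close relative known for cell-cycle arrest and cell-death genes. It stood at 8.39, 7.17 and 11.2 CPM in WT, at 10.6, 10.9 and 8.41 in Het and at 7.42, 6.59, 8.99 and 21.7 in KO. The other 3 KO libraries sat within 6.59 to 8.99 CPM, beside a WT mean of 8.90 ± 2.04 CPM (SD, n = 3). The estimate was 0.33 ± 0.37 (SE, adjusted p = 0.606, interval -0.48 to 1.13) in KO against WT, and -0.20 without KO-2126. In Het against WT it was 0.16 ± 0.39 (adjusted p = 0.83).

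In the TSC and mTOR branch, Mtor was the 1 gene of the 9 whose groups did not overlap in a comparison, in Het against WT, and it did not pass the test there. Tsc2 (chr17:24595816-24632630, minus strand) encodes tuberin, the subunit of the TSC complex that switches off the GTPase Rheb in front of mTORC1. It stood at 20.3, 24.5 and 24.8 CPM in WT, at 24.7, 24.4 and 23.8 in Het and at 26.8, 26.0, 20.6 and 27.2 in KO. It had the smallest spread of the 9 relative to its mean, with WT-2404 and KO-2124 the low libraries. On the log2 scale the fitted difference was 0.12 ± 0.16 (SE, adjusted p = 0.689, interval -0.24 to 0.47) in KO against WT and 0.07 ± 0.17 (adjusted p = 0.838) in Het against WT. Mtor (chr4:148448611-148557683, plus strand) encodes the kinase itself. It stood at 11.9, 12.1 and 13.0 CPM in WT, at 15.3, 16.4 and 13.1 in Het and at 12.4, 14.0, 12.4 and 19.8 in KO. All 3 Het libraries lay above all 3 WT libraries, the nearest at 13.1 and 13.0 CPM. The log2 fold change in Het against WT was 0.27 ± 0.21 (SE, adjusted p = 0.450, interval -0.18 to 0.73), and the two-sided exact permutation test gave p = 0.1, the smallest that 3 against 3 allow. Ranges lay apart with Het higher in 11.3% of all tested genes (in either direction, 24.8%), and in 1 of the 9. They lay apart in 0 of the 9 in KO against WT (15.9% of all tested genes) and in KO against Het (2.46%). In KO against WT the log2 fold change was 0.25 ± 0.20 (SE, adjusted p = 0.454, interval -0.18 to 0.67). Rptor (chr11:119602905-119899576, plus strand) encodes raptor, the scaffold that brings substrates to mTOR in mTORC1. It stood at 10.9, 11.0 and 15.5 CPM in WT, at 14.0, 15.8 and 13.6 in Het and at 14.7, 14.8, 11.9 and 19.4 in KO. WT-2067 lay among the Het and KO libraries. The fitted log2 fold change was 0.29 ± 0.20 (SE, adjusted p = 0.396, interval -0.15 to 0.73) in KO against WT and 0.22 ± 0.22 (adjusted p = 0.567) in Het against WT. Tsc2 shares 693 bases with Pkd1 on the opposite strand, a gene at 24.9 to 41.6 CPM here. Mtor overlaps Angptl7 (0.15 to 1.58 CPM) and Rptor the antisense gene Rptoros (0 to 0.307 CPM). The use of strand in counting is not given in the sources used here, so these values carry that uncertainty.

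**Figure D2:**
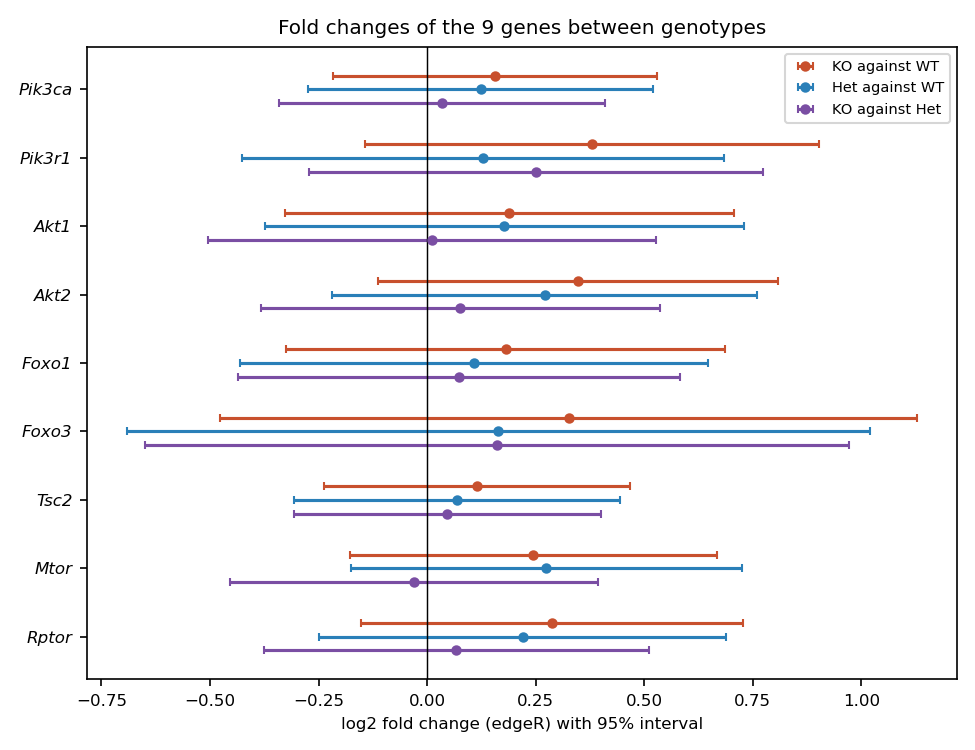
Fitted log2 fold change of each gene in KO against WT, Het against WT and KO against Het, from edgeR over all 10 libraries. Points are estimates and lines are 95% intervals. Every interval crosses 0, and the widest in KO against WT is that of Foxo3, from -0.48 to 1.13.

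Fitted differences of all 9 genes lay above 0 when KO or Het was set against WT, where 51.9% and 50.3% of all tested genes did. The median of the 9 was 0.25 in KO against WT (all tested genes, 0.03), 0.16 in Het against WT (0.0046) and 0.07 in KO against Het (0.0079). Both comparisons with WT share the 3 WT libraries, and the 9 genes share all libraries and the scaling, so they are not 9 separate observations of direction. In KO against Het 8 of 9 lay above 0 (51.5% of all tested genes). Mtor had -0.03 ± 0.20 there, and Pik3r1 the highest value of the 9 at 0.25 ± 0.24 (SE, adjusted p = 1 for each). Without KO-2126, 8 of 9 lay above 0 in KO against WT with a median of 0.07, and 3 of 9 in KO against Het. With the share of acinar marker counts in the fit, 6 of 9 lay above 0 in KO against WT and 3 of 9 in Het against WT. With library size alone and no TMM factors, 0 of 9 did in either comparison with WT: in KO against WT values ran from -1.14 (Pik3ca) to -0.81 (Pik3r1), beside a median of all genes of -1.17, and all 9 stayed above that median. No gene of the 9 passed the threshold under any of 19 settings in any comparison.

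KO-2126 held the highest level of all 10 libraries for 9 of the 9 genes. It held the highest level of 17.4% of all tested genes, a share larger than in any other library but WT-2404 (25.9%). By library size alone WT-2404 was instead the highest for all 9, so which library leads depended on the scaling. Within KO, KO-2124 was the lowest library for 8 of 9 genes, with Foxo3 the exception (KO-2070). Within WT, WT-2067 was the highest for 8 of 9, with Pik3ca the exception (WT-2404). Within Het, Het-1770 was the highest for 7 of 9. The acinar marker share of counts was highest of all libraries in KO-2126 (60.6%) and lowest within KO in KO-2124 (48.5%). It was highest within WT in WT-2067 (55.5%) and highest within Het in Het-1770 (59.2%). In each group the library with the most highs of these genes was thus the one with the largest acinar marker share. It was also the one with the lowest TMM factor (0.878 in WT-2067, 0.637 in Het-1770 and 0.596 in KO-2126). KO-2124 had the highest TMM factor within KO (1.36). Shares of all tested genes within a group were not counted. The part of acinar content in the levels was not tested beyond the fit with the acinar marker share as a covariate. That of the scaling was not tested beyond the fit with library size alone. The acinar marker share was 12.1% in WT-2404 and 44.7% to 60.6% in the other libraries. The covariate fit therefore cannot tell acinar content apart from other traits of WT-2404.

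**Figure D3:**
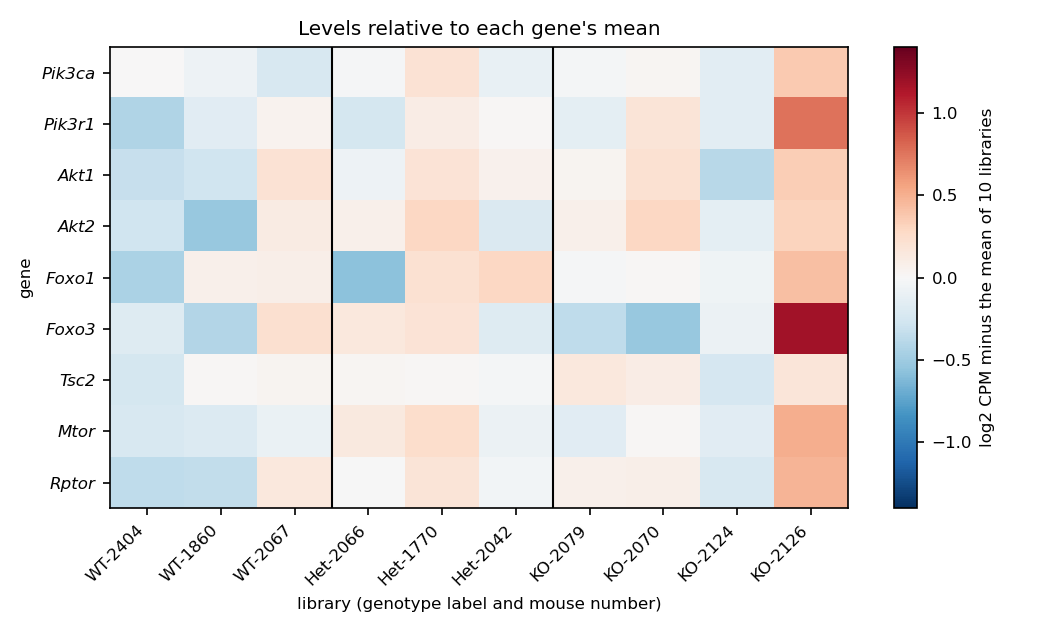
Level of each gene in each library as the difference of its log2 CPM from its mean over the 10 libraries, red above and blue below that mean. KO-2126 is the highest column for all 9 genes, and KO-2124 the lowest KO column for 8 of 9.

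Across the 10 libraries log2 CPM of the 9 genes correlated positively in all 36 pairs, with Pearson's r from 0.26 to 0.93 and a median of 0.63. Akt1 and Rptor had the highest r (0.93) and Akt2 and Foxo1 the lowest (0.26). Without WT-2404 the range was 0.10 to 0.91. With summed acinar markers r over all 10 libraries ran from 0.24 for Pik3ca to 0.76 for Rptor, with 0.74 for Akt1, 0.66 for Akt2, 0.58 for Mtor and 0.55 for Foxo1. These values rest in part on WT-2404. Without it r was 0.91 for Akt1, 0.91 for Akt2, 0.89 for Rptor, 0.74 for Mtor and 0.64 for Pik3ca, and Foxo1 was then the lowest at 0.25. With summed leukocyte markers r was negative for all 9 genes, from -0.79 for Rptor to -0.39 for Foxo3 over 10 libraries. Without WT-2404 it ran from -0.78 for Akt2 to -0.09 for Foxo1. These points share library, scaling and tissue makeup, and r is given as a description.

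The tested genes whose log2 CPM followed each of the 9 most closely over the 10 libraries were found among all others. For Akt1 they were Ttc23 (r = 0.99), Kcnq1 (0.98) and Tmed10 (0.98), the last a cargo receptor of the secretory route. For Rptor they were Eif3a (0.98) and Eif4g1 (0.97), both translation initiation factors, and Gps1 (0.98), a subunit of the COP9 signalosome. Akt2 was followed by Serinc3 (0.96), Ccz1 (0.96) and Slc16a7 (0.95), and Pik3r1 by Rbm47 (0.96), Tsr1 (0.95) and Ube2h (0.94). Stau1, which encodes an RNA-binding protein, was among the closest of both Mtor (0.94) and Pik3ca (0.90). The others were Aftph (0.95) and Cops4 (0.94) for Mtor, and Snrpd3 (0.91) and Gtf2a1 (0.90) for Pik3ca. Foxo1 was followed by Lrrc75a (0.93), Urgcp (0.91) and Irf2bp1 (0.90), and Tsc2 by Kcnq5 (0.93), Hacd1 (0.92) and Bco1 (0.92). Foxo3 had the loosest neighbours, Fam8a1 (0.90), Ralgapa2 (0.88) and Glul (0.88).

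Ratios of counts within a library do not depend on the scaling between libraries. The balance of Akt2 to Akt1 counts, as log2, was -1.31 ± 0.150 in WT (SD, n = 3), -1.22 ± 0.225 in Het (n = 3) and -1.13 ± 0.119 in KO (n = 4). The difference of 0.18 in KO against WT had an exact permutation p = 0.171, the smallest of the 15 ratio tests, and an adjusted p = 0.943. The Tsc2 to Mtor ratio was 0.91 ± 0.124 in WT, 0.71 ± 0.146 in Het and 0.80 ± 0.275 in KO, and the difference of -0.20 in Het against WT had an exact permutation p = 0.2 (adjusted p = 0.943). The ratio of Pik3r1 to Pik3ca was 0.68 ± 0.352 in WT, 0.69 ± 0.180 in Het and 0.87 ± 0.223 in KO. Rptor to Mtor and Foxo1 to Foxo3 also overlapped between all groups. None of the 15 tests passed, over 5 ratios and 3 comparisons.

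Of the other genes of the route, 109 in 9 lists, the table held 108, and 104 passed the filter on low counts. Of these 104, 0 passed the test in either direction in any comparison. For KO against WT, 25 had an unadjusted p below 0.05, of which 17 were higher and 8 lower. Of all tested genes, 9.61% were higher and 13.9% lower by that measure, 23.5% in all, and 51.9% had a fitted value above 0. CPM ranges of KO and WT lay apart with KO higher in 9 of the 104 and lower in 8. In all tested genes these shares were 6.74% and 9.15%. The genes of a list share libraries and scaling, so they are not separate observations. The counts past the threshold depended on WT-2067, on the scaling and on the tool. Under DESeq2 9 of the 104 passed in KO against WT (5 higher), beside 7.12% of the 13688 tested genes. Without WT-2067 15 of the 104 passed (10 higher), beside 14% of the 13688. Without WT-2404 0 of the 104 passed, and 0 of all genes, as in the fit over all libraries. The share of all genes at an unadjusted p under 0.05 was then 9.47%. With the acinar marker share in the fit 0 passed as well, and some medians in KO against WT were smaller. They went from 0.41 to 0.15 for mTORC1 substrates and effectors, from 0.30 to 0.17 for amino acid sensing, from 0.37 to 0.24 for the FOXO list, from 0.30 to 0.15 for the TSC list and from 0.07 to -0.01 for the mTOR complexes. In each list below, the genes named are those with the smallest p in KO against WT, and none passed the edgeR test. With library size alone, where the median of all genes was -1.17, all those named with values above 0 lay below 0 except Txnip and Rps6.

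**Figure D4:**
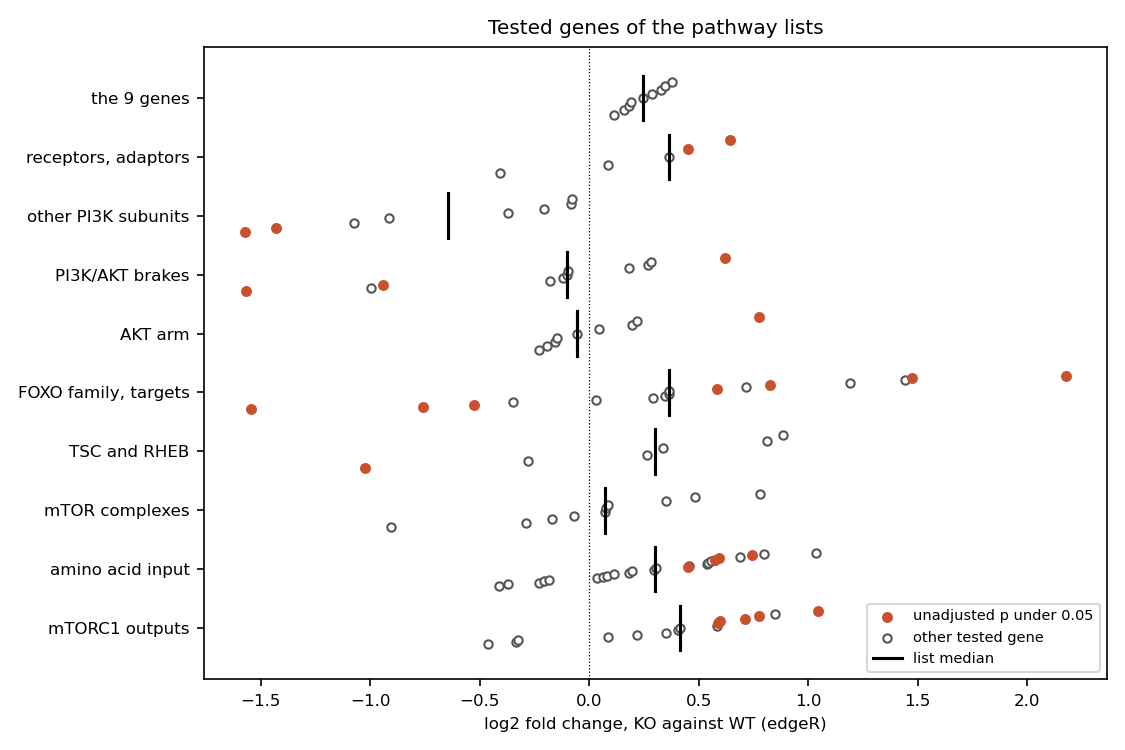
Fitted log2 fold change in KO against WT of each tested gene of the 9 lists and of the 9 genes described first, with the median of each list as a bar and genes at an unadjusted p under 0.05 filled. Heights within a list only separate the points. The 8 genes in the list of further PI3K subunits, which includes the adaptor Pik3ap1, all lie below 0. The 9 genes described first all lie above 0.

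Receptors and adaptors that feed PI3K numbered 5, of which 0 passed. For KO against WT their median was 0.37 on the log2 scale, with 2 higher at an unadjusted p under 0.05 (9.61% of all tested genes). Igf1r, the receptor for insulin-like growth factor, stood at 17.7, 14.5 and 20.7 CPM in WT, at 31.6, 22.1 and 21.5 in Het and at 25.0, 28.2, 28.5 and 28.4 in KO. All KO libraries lay above all WT libraries, as in 6.74% of all tested genes. The fold change on the log2 scale was 0.64 ± 0.19 (SE, adjusted p = 0.119 in edgeR, 0.0465 in DESeq2, 0.504 without WT-2404). The adaptor Gab1 had 0.45 ± 0.17 (adjusted p = 0.153) and the adaptor Grb2 -0.41 ± 0.21 (adjusted p = 0.255).

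The list of further PI3K subunits, which includes the adaptor Pik3ap1, had fitted log2 fold changes below 0 against WT for 8 of 8 genes in KO and in Het. The medians were -0.64 and -0.87, beside 48.1% and 49.7% of all tested genes below 0. The value nearest 0 was that of Pik3ap1, named after its value was seen, at -0.0020 in Het against WT. Its mean was 16.7 CPM in both of these groups. None passed the edgeR test, and 2 of 8 in KO and 4 of 8 in Het stood at an unadjusted p under 0.05. Of all tested genes, 23.5% in KO and 19.8% in Het did so, counted in either direction. DESeq2 called Pik3cd and Pik3cg lower in KO against WT, as did edgeR without WT-2067. Without WT-2067, and under voom, 6 of 8 lay below 0 in KO. With the acinar marker share in the fit the medians were -0.22 in KO and -0.45 in Het, with 7 of 8 and 6 of 8 below 0. Pik3cd encodes the delta catalytic subunit, known from leukocytes. It stood at 20.2, 14.2 and 9.25 CPM in WT, at 3.60, 5.22 and 5.71 in Het and at 6.86, 2.64, 7.65 and 1.82 in KO, with every WT library above every other library. WT lay apart above KO in 9.15% of all tested genes, and above Het in 13.5%. The estimate was -1.57 ± 0.43 (SE, adjusted p = 0.116 in edgeR, 0.0206 in DESeq2, 0.51 without WT-2404) in KO against WT and -1.59 ± 0.48 (adjusted p = 0.184) in Het against WT. Pik3cg, the gamma catalytic subunit of leukocytes, had -1.43 ± 0.40 (adjusted p = 0.116 in edgeR, 0.0293 in DESeq2, 0.51 without WT-2404) and Pik3r5, a regulatory partner of it, -0.91 ± 0.51 (adjusted p = 0.290) in KO against WT. Inpp5d encodes SHIP1, a leukocyte phosphatase that removes the PI3K lipid product. It stood at 30.6, 18.9 and 8.03 CPM in WT, at 5.0, 6.34 and 8.23 in Het and at 7.11, 3.16, 11.1 and 3.84 in KO, and had -1.57 ± 0.47 (adjusted p = 0.121 in edgeR, 0.027 in DESeq2), with -1.03 (adjusted p = 0.527) without WT-2404.

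These 4 genes followed the summed leukocyte markers from library to library, with r of 0.91 (Pik3r5) to 0.98 (Inpp5d) over 10 libraries and 0.93 to 0.97 without WT-2404. Per 100 CPM of leukocyte markers, Pik3cd stood at 1.96 to 3.23 in WT, 2.31 to 2.68 in Het and 1.94 to 2.92 in KO. Inpp5d stood at 2.73 to 4.29 in WT, 3.22 to 3.62 in Het and 2.65 to 4.09 in KO. Pik3cg covered 1.06 to 1.74 in WT, 1.29 to 1.84 in Het and 1.25 to 2.16 in KO, and Pik3r5 1.33 to 2.67, 1.53 to 2.67 and 1.75 to 3.25. The ranges of the 3 groups overlapped for all 4 genes on this scale, while the summed markers were highest in WT-2404 (1031 CPM). In plain CPM, WT lay apart above the other groups for Pik3cd and Pik3cg. Inpp5d and Pik3r5 overlapped between WT and each other group in plain CPM already. For Pik3r5 the lowest WT library stood at 5.76 CPM, and the highest Het and KO libraries at 6.08 and 8.72 CPM. Pik3ca and Pik3r1, by contrast, had negative r with the same markers, -0.47 and -0.75 over 10 libraries and -0.68 and -0.67 without WT-2404. The part of leukocyte content in the levels of these genes was not tested. Fibroblast and ductal markers, also higher in WT, were not used as such a scale. How many of all tested genes follow the leukocyte markers as closely was not counted.

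**Figure D5:**
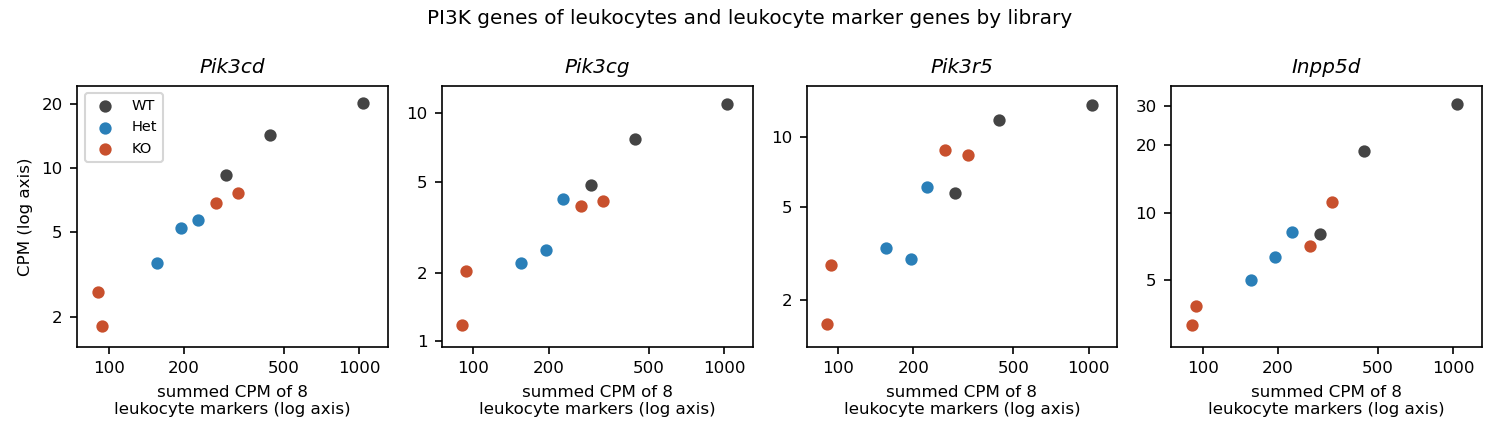
Level of Pik3cd, Pik3cg, Pik3r5 and Inpp5d against the summed level of 8 leukocyte markers, both in CPM on log axes, with 1 point per library coloured by group. Over the 10 libraries the level of each gene goes up with the markers, from KO-2070 at 90.4 CPM of markers to WT-2404 at 1031 CPM. It does not rise at every step within a group, as for Pik3cd in KO-2070 and KO-2126.

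Among the 11 phosphatases and inhibitors that oppose PI3K and AKT, 4 lay above and 7 below 0 in KO against WT, with a median of -0.10. Inppl1, which encodes SHIP2, a phosphatase of the same lipid, had 0.62 ± 0.21 (SE, adjusted p = 0.128 in edgeR, 0.046 in DESeq2, 0.527 without WT-2404), with WT at 26.5 to 44.4 CPM and KO at 49.9 to 60.0. Inpp4b, a lipid phosphatase of a later step, had -0.94 ± 0.37 (adjusted p = 0.163). Among 9 AKT partners and substrates, 4 lay above 0, with a median of -0.06. At an unadjusted p under 0.05 stood 23.5% of all tested genes (9.61% higher) and 1 of these 9, which was higher. It was Pdcd4, a translation inhibitor and AKT substrate, at 0.77 ± 0.33 (adjusted p = 0.184), from 43.3 CPM in WT-2404 to 169 CPM in KO-2126. Gsk3b, the kinase that AKT inhibits in glycogen synthesis, had -0.23 ± 0.18 (adjusted p = 0.449) and Tbc1d1, a regulator of glucose transporter traffic, -0.19 ± 0.20 (adjusted p = 0.567).

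The other FOXO genes and genes widely described as FOXO targets did not go 1 way. Of 20 listed, 16 were tested, 12 above and 4 below 0 in KO against WT, with a median of 0.37. At an unadjusted p under 0.05 stood 7 (4 higher, 3 lower), beside 9.61% higher and 13.9% lower of all tested genes. Gadd45a, a growth arrest and DNA damage gene, stood at 7.57, 6.24 and 4.17 CPM in WT, at 1.93, 1.49 and 2.64 in Het and at 2.04, 2.11, 3.09 and 0.809 in KO. Every WT library lay above every other library. WT lay apart above KO in 9.15% of all tested genes, and above Het in 13.5%. The log2 fold change was -1.55 ± 0.39 (SE, adjusted p = 0.116 in edgeR, 0.0129 in DESeq2, 0.504 without WT-2404) in KO against WT. Txnip, an inhibitor of thioredoxin and glucose uptake, stood at 228, 261 and 463 CPM in WT, at 1024, 558 and 668 in Het and at 729, 341, 1025 and 1428 in KO. KO-2070 overlapped WT, and the log2 fold change was 1.47 ± 0.48 (SE, adjusted p = 0.126 in edgeR, 0.0206 in DESeq2, 0.51 without WT-2404). Bcl2l11, the cell-death gene that encodes BIM, had -0.76 ± 0.25 (adjusted p = 0.126). The lists rest on published descriptions in other tissues, and these members differ in direction.

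In the TSC list of 6 genes, 4 lay above 0 in KO against WT with a median of 0.30. Ddit4l, a stress inhibitor of mTORC1, had -1.02 ± 0.46 (SE, adjusted p = 0.206) and Tsc1, the partner of Tsc2, 0.34 ± 0.22 (adjusted p = 0.356). Ddit4, the relative of Ddit4l, had 0.89 ± 0.67 (adjusted p = 0.432), with 126 CPM in KO-2126 and 8.56 CPM in KO-2070, and -0.04 without KO-2126. Of the 10 other subunits of the mTOR complexes, 6 lay above 0 with a median of 0.07. Deptor, an inhibitor of mTOR, had 0.78 ± 0.38 (adjusted p = 0.229), Rictor, the scaffold of mTORC2, 0.48 ± 0.25 (adjusted p = 0.251), and Akt1s1, an inhibitory subunit of mTORC1, 0.35 ± 0.19 (adjusted p = 0.271).

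Genes of amino acid sensing in front of mTORC1 lay above 0 in 19 of 24 cases in KO against WT, with a median of 0.30. Of these, 4 were higher at an unadjusted p under 0.05. Of all tested genes, 51.9% lay above 0 and 9.61% were higher at that p. Mios, a subunit of the GATOR complex that relays amino acids, stood at 5.71, 4.54 and 4.84 CPM in WT, at 9.65, 8.67 and 6.39 in Het and at 7.67, 8.96, 6.92 and 10.5 in KO. Every WT library lay below every other library. KO lay apart above WT in 6.74% of all tested genes, and Het in 11.3%. The log2 fold change was 0.74 ± 0.22 (SE, adjusted p = 0.121). Wdr59, of the same complex, had 0.59 ± 0.26 (adjusted p = 0.190) and Nprl3, of the complex that opposes it, 0.57 ± 0.22 (adjusted p = 0.156). Among 15 substrates and effectors of mTORC1, 12 lay above 0 with a median of 0.41 (51.9% of all tested genes above 0). Of the 15, 5 were higher at an unadjusted p under 0.05 (9.61% of all tested genes). Maf1, a repressor of RNA polymerase III that mTORC1 inhibits, stood at 18.9, 18.3 and 18.6 CPM in WT, at 27.8, 26.1 and 23.2 in Het and at 26.4, 29.4, 27.0 and 29.1 in KO. The WT libraries lay close together and below all others, where the shares of all tested genes given for Mios apply to Maf1 and Rps6 as well. The log2 fold change was 0.59 ± 0.15 (SE, adjusted p = 0.116 in edgeR, 0.0104 in DESeq2, 0.504 without WT-2404). Rps6, a ribosomal protein downstream of the S6 kinases, stood at 85.6, 103 and 164 CPM in WT, at 325, 224 and 217 in Het and at 240, 236, 229 and 265 in KO, also with no overlap. Its log2 fold change was 1.04 ± 0.29 (SE, adjusted p = 0.116 in edgeR, 0.00592 in DESeq2, 0.504 without WT-2404). How reads shared with Rps6 pseudogenes were counted is not known, and its level is uncertain to that extent. Atg13, which starts autophagy when mTORC1 is off, had 0.60 ± 0.24 (adjusted p = 0.163).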

How the data were processed

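The authors deposited 1 table of raw counts per gene symbol, whole numbers that sum to a different total in each library. Per the submitters' processing notes, the build was mm10 and the tools DRAGEN, STAR and Cufflinks, with no version or role. The counting tool, the annotation and the use of strand are not given in the sources used here. Per the labels' protocols, frozen tissue was pulverised and RNA taken with a column kit. All 10 columns were matched to samples by genotype and mouse number. The labels count 4 WT mice but list 3 WT samples, and all 3 were analysed here. Nothing in the labels names a batch or litter. Not reported here are 1 pathway gene and a part of the genotype that all groups share.

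Reads outside genes (2.59% to 8.71% of counts) and ambiguous reads (0.101% to 0.584%), which have 1 row each, were kept out of library sizes and tests. Replicates differed by more than sampling noise (chi-square per degree of freedom 26.5 to 988). Genes passing filterByExpr (minimum count 10) were tested with edgeR 4.0.16 (TMM, robust quasi-likelihood fit over all 10 libraries, no covariates) in R 4.3.3, with Benjamini-Hochberg adjustment over 13688 genes at a threshold of 0.05. DESeq2 1.42.0 and limma 3.58.1 (voom with quality weights) served as alternatives, with other scalings, filters and left-out libraries. The scripts were tested on simulated data. CPM uses TMM-scaled sizes, and log2 CPM a prior count of 2. Count ratios were compared by two-sided exact permutation, whose smallest p is 0.0286 for 3 against 4 libraries and 0.1 for 3 against 3. A count of 3, the limit that 0 allows, stands at 0.05 to 0.395 CPM. It covers counting error only.

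The 9 genes and all lists were chosen with earlier results of these data known. Named from each list were the up to 3 genes with the smallest p in KO against WT. Named beside each of the 9 were the 3 genes with the highest r. Promoter windows are those of RefSeq (GRCm38.p6).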

Additional observations from a re-analysis of the deposited data

Results flagged for a closer look

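Foxo1 stood at 24.4 CPM in KO-2126, apart from the other 3 KO libraries at 17.4 to 18.3 CPM. Its gap to the nearest library took 0.872 of the range of the KO group, past Dixon's 95% critical value. Foxo3 stood at 21.7 CPM in the same library, apart from the others at 6.59 to 8.99 CPM, with a gap of 0.841 of the range. In all, 14 gene groups of 4 samples were checked, and chance would flag about 0.7 of them. Without KO-2126 the log2 fold change in KO against WT was 0.06 for Foxo1 and -0.20 for Foxo3. The library also had the highest acinar marker share of counts (60.6%) and the lowest TMM factor (0.596). Their part in both values was not tested.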

How the results depend on the processing

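No gene of the 9 passed the threshold under any setting, and the count of all genes in KO against Het was 0 under every setting run. In KO against WT, where edgeR found 0 genes past the threshold and 3222 at an unadjusted p under 0.05, DESeq2 found 984, library size alone 2841, and leaving out 1 library 0 to 1932 (the highest without WT-2067). In Het against WT, with 0 and 2715, DESeq2 found 318, library size alone 3140, and leaving out 1 library 0 to 1160 (the highest without WT-2067). Of the 104 pathway genes, DESeq2 called 9 and 2 in KO and Het against WT, library size alone 17 and 19, and leaving out 1 library 0 to 15 and 0 to 8. Over all 13688 tested genes DESeq2 called 7.12% and 2.31%, and library size alone 20.8% and 22.9%. Without WT-2067, which gave the highest counts, 14% and 8.44% were called. These settings were applied to the pathway genes after seeing the data. The cause was not tested.

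With library size alone the median of all genes moved to -1.17 in KO and -1.36 in Het against WT and to 0.17 in KO against Het. In Het against WT the values then were -1.30 for Pik3ca, -1.14 for Pik3r1, -1.09 for Akt1, -1.05 for Akt2, -1.14 for Foxo1, -1.14 for Foxo3, -1.22 for Tsc2, -1.08 for Mtor and -1.05 for Rptor. In KO against WT they were -1.14 for Pik3ca, -0.81 for Pik3r1, -0.99 for Akt1, -0.85 for Akt2, -0.93 for Foxo1, -0.91 for Foxo3, -1.06 for Tsc2, -0.99 for Mtor and -0.88 for Rptor. There Inppl1 had -0.39, Pdcd4 -0.19, Tsc1 -0.81, Ddit4 -0.43, Deptor -0.25, Rictor -0.65, Akt1s1 -0.88, Mios -0.58, Nprl3 -0.58, Wdr59 -0.36, Maf1 -0.63, Atg13 -0.56, Igf1r -0.53 and Gab1 -0.80. Mtor in KO against Het had 0.084. With the acinar share as a covariate, Het against WT gave -0.15 for Pik3r1, -0.080 for Akt1, -0.16 for Foxo1, -0.063 for Foxo3, -0.098 for Tsc2 and -0.019 for Rptor, and KO against WT gave -0.065 for Akt1, -0.078 for Foxo1 and -0.047 for Tsc2. Voom with quality weights gave -0.11 for Foxo3 in KO against Het.

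Leaving out 1 library at a time, values that changed sign ran in KO against WT from -0.20 to 0.52 for Foxo3 and from -0.039 to 1.24 for Ddit4, and in Het against WT from -0.044 to 0.34 for Foxo1 and from -0.0068 to 0.13 for Tsc2. In KO against Het they ran from -0.080 to 0.13 for Pik3ca, -0.088 to 0.11 for Akt1, -0.041 to 0.20 for Akt2, -0.15 to 0.23 for Foxo1, -0.37 to 0.33 for Foxo3, -0.21 to 0.044 for Mtor and -0.071 to 0.15 for Rptor. The ratio of Pik3r1 to Pik3ca ran from -0.17 to 0.19 in Het against WT, and that of Akt2 to Akt1 from -0.041 to 0.17 in KO against Het. Foxo1 to Foxo3 ran from -0.16 to 0.28 in KO against WT, -0.38 to 0.22 in Het against WT and -0.21 to 0.39 in KO against Het. Rptor to Mtor ran from -0.0018 to 0.19 in KO and -0.10 to 0.093 in Het against WT. Tsc2 to Mtor ran from -0.21 to 0.0047 in KO against WT and -0.016 to 0.20 in KO against Het. No paired analysis was possible because the numbers in the labels are those of single mice and no number occurs in more than 1 group.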

Other observations

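Some genes of the lists outside the naming rule are given here as values, chosen after their values were seen. Foxo4, a further FOXO gene, stood at 13.0, 16.5 and 17.5 CPM in WT, at 14.9, 21.9 and 19.8 in Het and at 19.0, 28.1, 22.0 and 24.8 in KO. KO lay apart above WT, as in 6.74% of all tested genes, and Het overlapped both. Its log2 fold change in KO against WT was 0.58 ± 0.20 (SE, adjusted p = 0.130 in edgeR), and 0.27 ± 0.21 (adjusted p = 0.464) in Het against WT. Irs2, the insulin receptor substrate that FOXO factors are known to induce, stood at 3.21, 3.72 and 4.23 CPM in WT, at 7.98, 3.64 and 4.24 in Het and at 7.54, 5.01, 5.44 and 8.19 in KO. Het overlapped both other groups, and KO against WT had 0.82 ± 0.30 (adjusted p = 0.143). Lamtor3, a part of the lysosomal anchor of mTORC1, was the 1 gene of the lists at an unadjusted p under 0.05 in KO against Het, where 0.752% of all tested genes were. It stood at 10.2, 11.4 and 10.6 CPM in WT, at 11.5, 13.7 and 12.5 in Het and at 7.67, 9.88, 10.1 and 8.90 in KO, with -0.46 ± 0.17 (adjusted p = 1).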
